A study of Mus musculus with 10 samples.

Results

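Gene-end methylation was measured for 49 homeobox genes that pattern the embryo outside the Hox clusters, in mouse embryos at embryonic day 7.5. The genes were all autosomal protein-coding genes of RefSeq GRCm38 whose symbol has the letters of Lhx1, Dlx1, Six2, Irx1, Msx1, Otx1, Emx1, Nkx2-1 or En1 directly followed by a digit, leaving out opposite-strand names, and they make up 49 of 20665 autosomal protein-coding genes. The series holds 5 samples titled arsenic and 5 titled control, all of embryo DNA made into reduced representation bisulfite libraries, an assay that reads CpG-rich restriction fragments after bisulfite has turned unmethylated cytosines into uracil. The labels give no dose or route of arsenic and not which animals received it, neither strain nor sex, and not how many embryos a sample holds. The counts were deposited as 10 numbered sets that bear no group name, so none could be tied to a title, and arsenic was not compared with control. Each set is called a library column, and values are the level over the summed columns with the lowest, median and highest column. No test between groups was possible, and none is given.

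Homeobox genes encode transcription factors that bind DNA through the homeodomain, a helix-turn-helix fold that in many of them contacts AT-rich core sites. The families described here are switched on in restricted territories of the head, neural tube, placodes, limb, heart and gut, most of them after gastrulation. Promoters of such developmental regulators are usually rich in CpG and, in cells of the early embryo, commonly carry Polycomb marks in place of DNA methylation. A level from embryo DNA averages over all cells, so a few cells with heavy methylation and many cells with little cannot be told apart. No RNA was measured, so the tissue label was not checked with marker genes.

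A member was counted as measured where at least 3 cytosine positions lay within 1000 bp of a gene end, and the level of an end is the share of methylated calls among all its calls, in percent. A promoter table of the same build gave the strand, and hence the 5′ end, of 35 of the 49 genes. For the other 14, whose strand is not listed, the end that holds more positions stands in, and it can be the 3′ end. Among these are En2, Lhx5, Dlx3, Dlx4, Dlx5, Dlx6, Irx1, Irx5, Irx6, Otx1, Nkx2-6 and Nkx6-3. The gene table gives gene starts and ends without exons, so exon, intron and UTR are not told apart here. These used ends were measured in 46 members and the opposite ends in 30, together 76 of 98 ends. Neither end of Lhx4 and Otx2 reached 3 positions, and Lhx3 did so at its 3′ end alone. The median calls at a used end were 20956, with a range from 2431 for Irx4 to 65599 for Nkx2-4. The summed coverage of the columns over the whole table ranged from 73509873 to 127743904.

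The promoters show the levels of single CpGs. Stretches of 250 bases before a listed transcript start are printed 5′ to 3′ from RefSeq GRCm38.p6, with the CpGs that were measured in capitals. Nkx2-9, Six5 and Irx4 are the genes with the highest level, the lowest level and the widest range at the 5′ end among genes with at least 3 measured positions in the stretch, and Lhx4, En1 and Nkx2-1 were added after the values were seen. The stretches are Nkx2-9 on chr12:56613285-56613534 (minus strand), Six5 on chr7:19094294-19094543 (plus), Irx4 on chr13:73260247-73260496 (plus), Lhx4 on chr1:155742028-155742277 (minus), En1 on chr1:120602237-120602486 (plus) and Nkx2-1 on chr12:56536909-56537158 (minus).
Nkx2-9: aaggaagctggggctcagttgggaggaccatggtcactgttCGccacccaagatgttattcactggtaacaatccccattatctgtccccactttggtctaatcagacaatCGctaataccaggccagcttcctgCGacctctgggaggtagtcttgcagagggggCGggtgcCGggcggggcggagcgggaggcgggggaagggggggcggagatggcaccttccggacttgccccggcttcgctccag
Six5: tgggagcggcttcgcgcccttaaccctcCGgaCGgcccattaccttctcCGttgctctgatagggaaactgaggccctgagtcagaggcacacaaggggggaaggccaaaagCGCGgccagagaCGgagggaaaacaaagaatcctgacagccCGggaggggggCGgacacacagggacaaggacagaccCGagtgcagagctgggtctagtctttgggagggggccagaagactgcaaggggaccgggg
Irx4: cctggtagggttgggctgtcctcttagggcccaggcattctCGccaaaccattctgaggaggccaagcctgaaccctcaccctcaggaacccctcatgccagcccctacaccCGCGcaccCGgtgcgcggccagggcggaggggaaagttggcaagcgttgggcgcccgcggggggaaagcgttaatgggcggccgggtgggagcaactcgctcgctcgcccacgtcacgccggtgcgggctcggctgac
Lhx4: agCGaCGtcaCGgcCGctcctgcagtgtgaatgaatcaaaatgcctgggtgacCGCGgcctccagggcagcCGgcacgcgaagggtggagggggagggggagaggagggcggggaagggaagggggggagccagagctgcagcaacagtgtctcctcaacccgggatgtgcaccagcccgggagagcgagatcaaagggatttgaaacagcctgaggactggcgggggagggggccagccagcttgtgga
En1: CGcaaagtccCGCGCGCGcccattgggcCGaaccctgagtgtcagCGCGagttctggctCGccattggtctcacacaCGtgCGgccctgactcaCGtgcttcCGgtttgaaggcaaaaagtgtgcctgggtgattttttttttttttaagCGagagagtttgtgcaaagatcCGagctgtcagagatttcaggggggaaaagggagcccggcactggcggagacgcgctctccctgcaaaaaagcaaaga
Nkx2-1: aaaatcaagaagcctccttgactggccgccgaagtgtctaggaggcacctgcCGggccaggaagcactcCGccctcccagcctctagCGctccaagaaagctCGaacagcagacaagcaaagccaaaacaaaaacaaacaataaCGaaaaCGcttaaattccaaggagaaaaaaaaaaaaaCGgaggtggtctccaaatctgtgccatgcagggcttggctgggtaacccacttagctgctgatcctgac

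In the Six5 stretch 9 of 13 CpGs were measured, with a summed level of 1.25% and columns from 0.177 to 1.93%. The CpGs 218, 201 and 60 bases before the start had no methylated call among 810, 810 and 162 calls. If calls are independent and 3 methylated calls are taken as the limit, levels up to 0.370, 0.370 and 1.85% are allowed. The highest CpG, 97 bases before the start, had 8.75%. The Lhx4 stretch was also low, at 0.775% over 7 CpGs, with at most 2.44% in any column. It lies before a start 9699 bp inside the gene and outside the windows of the Lhx4 gene ends. In En1 methylation was spread over the stretch. Its 15 measured CpGs had levels from 3.23 to 21.4% and a summed level of 9.17%, and the columns ran from 3.96 to 12.1%. In the Nkx2-1 stretch the level differed along the sequence. The CpGs 198 and 181 bases before the start had 36.5 and 28.2%, and the nearest measured CpGs, 100 and 69 bases before it, had 2.53 and 4.52%. The Nkx2-9 stretch had 13.9% over 5 CpGs, with single CpGs from 4.15 to 28.3% and columns from 8.57 to 19.3%. In Irx4 only 4 of 22 CpGs were measured, at 5.41 to 9.22%, and the columns ranged from 0.694 to 14.0% on 1842 calls in all.

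Member promoters were rich in CpG. Over 43 listed starts of 35 members, windows of 300 bases around the start held a median of 20 CpGs, against 14 in 20042 windows of other coding genes, and 62.3% against 56.7% G and C. The sequence CCGG, the site cut by the enzyme MspI that is commonly used in this assay, occurred in 86.0% of member windows and 63.5% of the others. TAATTA, a core site of some homeodomains but not of all, was searched on both strands. It occurred in 4 of 43 member windows (9.30%) and in 4.47% of the others. The 4 were those of Emx2, Msx2 and the Otx2 starts at 2535 and 0 bp from the gene end. A match of letters is a description only and does not show binding. Windows of the same gene can overlap, as for Otx2 and Six4.

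The members were lowly methylated at the used end. Of 46 measured, 42 were under 20%, or 91.3%, 4 lay between 20 and 80% and none was above 80%. Of 13248 other coding genes, 80.9% were under 20%. Within this low range the members lay higher. Their median was 6.97%, with column medians from 5.21 to 7.89%, and that of the other genes was 2.39%, with column medians from 2.31 to 2.66%. The upper quartile was 11.6% in both sets. With windows of 500 bp the median of the members was 3.78%, and in genes of at most 10000 bp it was 6.58% over 36 members and 3.90% over 3714 others. Levels from 5 to 20% were found at 22 members, or 47.8%, and at 17.8% of the other genes, and levels under 5% at 43.5% of the members and 63.1% of the others. The 32 members measured at a known 5′ end had a median of 5.08%, against 2.16% at 10327 other 5′ ends. Of these 32 members, 31 were under 20%, as were 8550 of the 10327 other 5′ ends. In genes of at most 10000 bp the medians at known 5′ ends were close, with 3.60% over 22 members and 3.37% over 2880 others. In 38 of the 46 members all 10 columns lay under 20%, and in 2, Nkx6-3 and Nkx1-2, all 10 lay above. These column counts are not given for the other genes, of which 80.9% were under 20% over the summed columns. No test of these differences was made, since the genes are not replicates and the columns are not tied to groups.

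**Figure D1:**
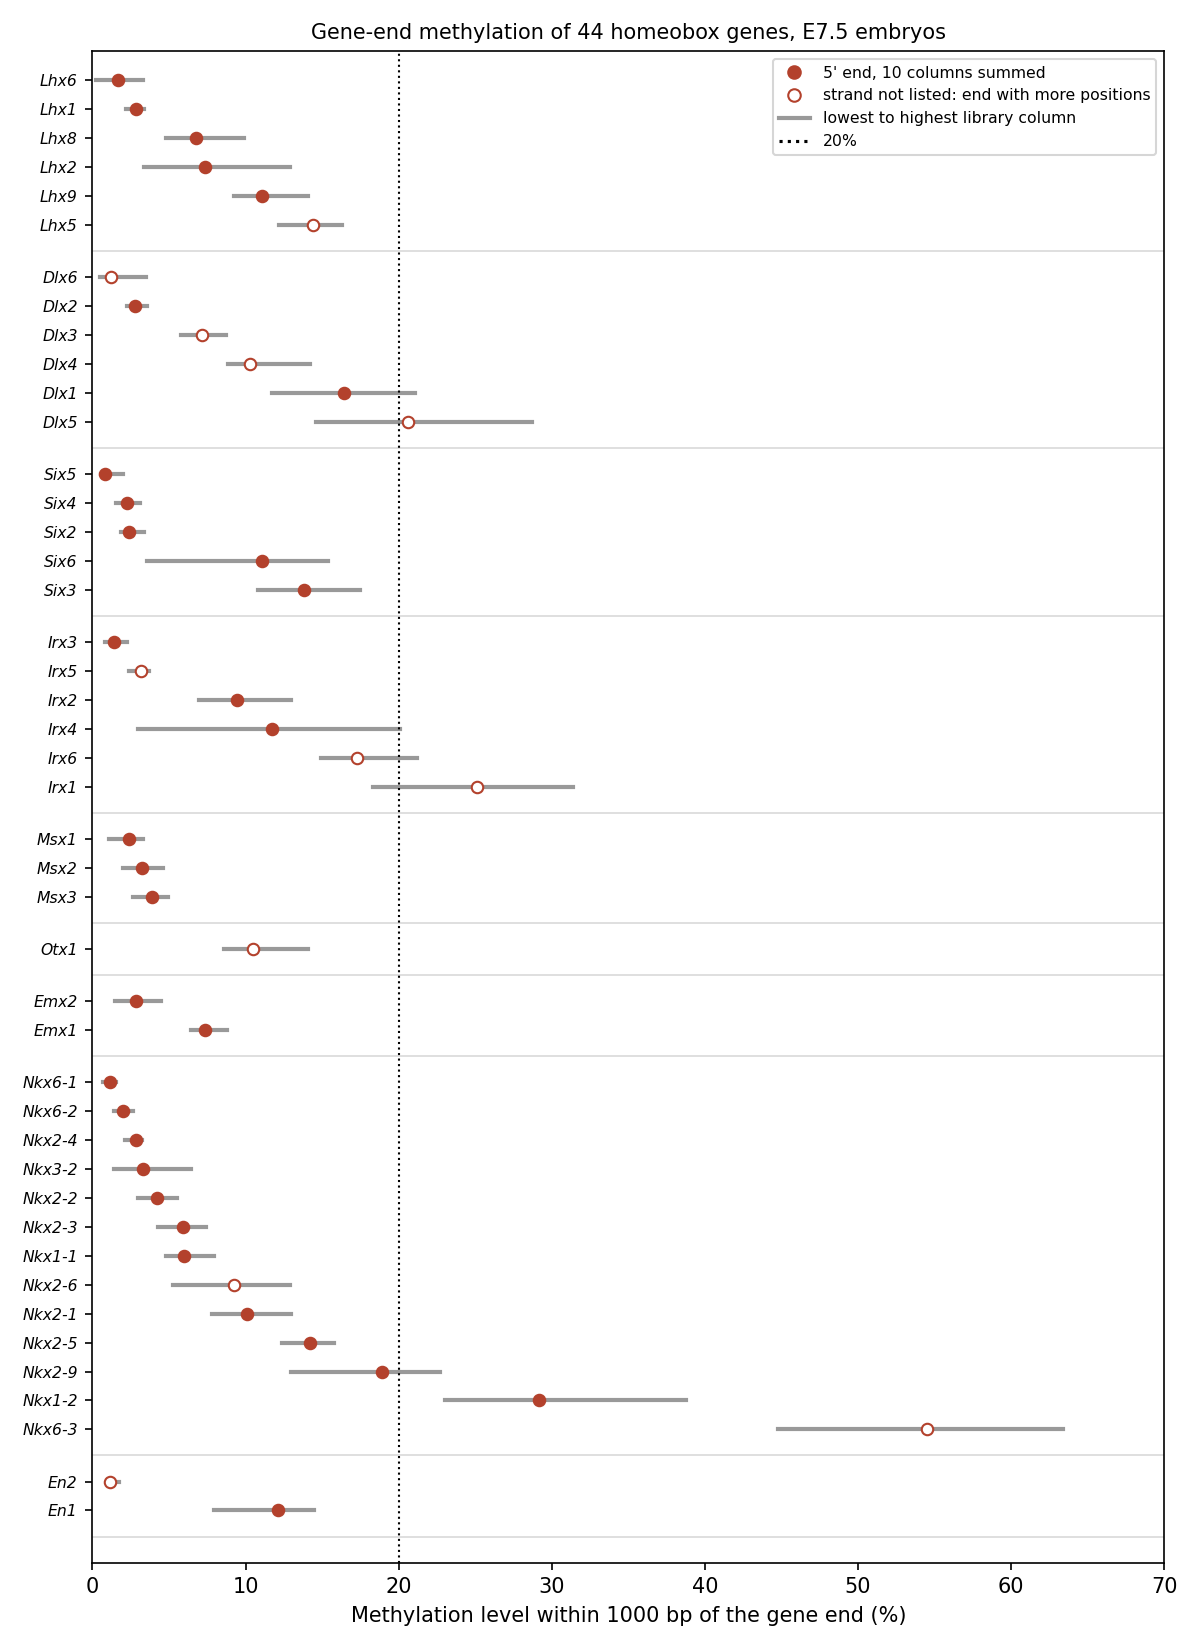
Methylation level (%) within 1000 bp of the used gene end of 44 members, in rows by family, with points for the 10 columns summed and bars from the lowest to the highest library column. Filled points are known 5′ ends and open points the end with more positions where no strand was listed, and 40 of 44 points lie left of the dotted line at 20%.

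The 6 highest used ends were those of Nkx6-3, Nkx1-2, Irx1, Dlx5, Nkx2-9 and Irx6. Nkx6-3 (chr8:23153271-23158948) had 2873 methylated of 5275 calls, which gives a 95% Wilson interval from 53.1 to 55.8%. Nkx1-2 (chr7:132596239-132599637) had 774 of 2648 calls, with an interval from 27.5 to 31.0%, and Irx1 (chr13:71958232-71963723) had 4552 of 18129, from 24.5 to 25.7%. Dlx5 (chr6:6877801-6882068) had 1420 of 6894 calls, from 19.7 to 21.6%. These intervals do not overlap between Nkx6-3, Nkx1-2, Irx1 and Dlx5, but the columns of Nkx1-2, Irx1 and Dlx5 do. Nkx6-3, Irx1, Dlx5 and Irx6 have no listed strand, and these ends can be 3′ ends. With windows of 500 bp the opposite end of Irx1 and Dlx5 held more positions, and the used level was then 0.792% for Irx1 and 2.49% for Dlx5. Nkx2-9 (chr12:56611389-56613569) had an interval from 18.2 to 19.6%, and Irx6 (chr8:92674289-92680956) from 16.7 to 17.8%, and in both genes some columns crossed 20%. The 6 lowest were those of Six5, Nkx6-1, En2, Dlx6, Irx3 and Lhx6, all under 2%. Six5 (chr7:19094544-19098549) had 278 methylated of 34841 calls, with an interval from 0.710 to 0.897%, Nkx6-1 (chr5:101659184-101664711) had 513 of 44795, from 1.05 to 1.25%, and En2 (chr5:28165696-28172190) had 447 of 38818, from 1.05 to 1.26%. Dlx6 (chr6:6863334-6867970) had 200 of 16252 calls, from 1.07 to 1.41%, Irx3 (chr8:91798511-91801654) had 663 of 47852, from 1.28 to 1.49%, and Lhx6 (chr2:36081950-36105992) had 85 of 5027, from 1.37 to 2.09%. The columns of neighbours in this order overlap. Without column 9 the columns of Six5 ran from 0.561 to 0.857%, which still overlaps those of Nkx6-1, from 0.669 to 1.53%. They then lay below each column of En2, from 0.922 to 1.74%. Gene positions are those of GRCm38.

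The LIM-homeodomain genes, which act in the head organizer, forebrain, pituitary and motor neurons, were under 20% at all 6 measured used ends, with a median of 7.06%. Lhx1, needed in the anterior mesendoderm for head formation, had 2.83% over 98 positions (95% Wilson interval 2.68 to 2.99%), with columns from 2.20 through a median of 2.80 to 3.35%. The Lhx1 columns lay within 1.15 percentage points of each other. Such intervals cover counting error only and are too narrow, since calls from the same read are not independent. Lhx6, a gene of forebrain interneurons, had 26.6% at its 3′ end (columns 18.3, 27.2 and 34.5% as lowest, median and highest) and 1.69% at its 5′ end (0.212, 1.68 and 3.30%), without overlap of the columns. Lhx2, of eye and forebrain, had 17.5% at its 3′ end and 7.37% at its 5′ end, where the columns spread widely from 3.35 to 12.9%. Lhx8 had 6.74%, Lhx9, of the gonad and limb, 11.1%, and Lhx5 13.4% over 35 positions at the end with fewer positions and 14.4% over 71 at the other. The pituitary and motor neuron gene Lhx3 was measured at its 3′ end only, at 23.0% over 4 positions.

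The Dlx genes lie in neighbouring pairs and pattern the branchial arches and ventral forebrain. In the Dlx1 and Dlx2 pair, Dlx1 had 16.4% at its 5′ end (columns 11.7, 15.8 and 21.1%), and Dlx2 had 6.18% at its 3′ end and 2.81% at its 5′ end (columns 2.25, 2.80 and 3.59%). The 9426 bp between the pair held 58 positions with a level of 14.4%. Dlx6 and Dlx5 have no listed strand. Dlx6 had 10.6% over 8 positions at the end with fewer positions (columns 0.588, 11.3 and 23.1%) and 1.23% over 65 positions at the other (columns 0.492, 1.12 and 3.51%), which became 9.28% with windows of 2000 bp. Dlx5 had 3.78% over 13 positions at the end with fewer positions (columns 2.12, 3.61 and 6.14%) and 20.6% over 18 positions at the other (columns 14.6, 20.2 and 28.7%). The interval of 9830 bp between them was measured at 8 positions only, with a level of 8.96%. Dlx3, of placenta and skin, had 7.19% and Dlx4 10.3%, but the 15150 bp between these neighbours had 47.6% over 33 positions.

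The sine oculis homologues, regulators of placodes, eye, muscle and kidney, had the lowest family median with more than 3 members, 3.04%, and no used end of it exceeded 20%. Six5, which lies beside Dmpk and shares its window with an end of that gene, had the lowest level of all members, 0.798% over 72 positions (columns 0.561, 0.737 and 2.02%). Six4 had 2.24% and Six2, which maintains nephron progenitors, 2.37% over 111 positions. Six3 and Six6, both of the eye field and anterior forebrain, lay higher. Six3 had 28.1% at its 3′ end over 4 positions and 13.8% at its 5′ end (columns 10.8, 13.4 and 17.5%). Six6 had 6.36% at its 3′ end and 11.1% at its 5′ end, where the columns ran from 3.58 through 11.9 to 15.4%, a wide span. Between the neighbours Six3 and Six2 the level was 43.3% over 65 positions.

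The Iroquois genes come in clusters of Irx1, Irx2 and Irx4 on chromosome 13 and of Irx3, Irx5 and Irx6 on chromosome 8, and act in neural, heart and limb patterning. Irx3 was low across the gene, with 4.32% at its 3′ end (columns 2.92, 4.41 and 6.14%) and 1.39% over 127 positions at its 5′ end (0.799, 1.20 and 2.29%). Its neighbour Irx5 had 9.63% at the end with fewer positions and 3.16% at the other, and Irx6, the outer gene of the cluster, 43.1% over 19 positions and 17.3% over 55. The columns of Irx6 did not overlap between its ends, with 31.5 to 53.0% against 14.9 to 21.2%. Irx1 had 0.887% over 27 positions at the end with fewer positions and 25.1% over 35 at the other (columns 18.3, 24.9 and 31.4%). Irx2 had 9.46% at its 5′ end. Irx4, a gene of the heart ventricle, had 21.0% at its 3′ end and 11.7% over only 7 positions at its 5′ end, where the columns ran from 3.00 to 20.1%. With windows of 2000 bp the 5′ end of Irx4 had 31.8% over 53 positions. The long intervals inside the clusters were methylated, at 52.6% between Irx1 and Irx2, 56.5% between Irx2 and Irx4, 46.4% between Irx3 and Irx5 and 45.6% between Irx5 and Irx6, each over at least 286 positions.

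The Msx genes, targets of BMP signalling in limb buds, neural crest and dorsal neural tube, were low at the 5′ end, with 2.38% for Msx1 (columns 1.06, 2.43 and 3.32%), 3.24% for Msx2 (2.03, 3.27 and 4.58%) and 3.90% for Msx3 (2.65, 3.74 and 4.95%). All 3 genes had each column under 5%, and their ranges overlap. The 3′ end of Msx2, measured over 19 positions, had 27.6%, with columns from 19.1 to 33.0%. Otx1, of forebrain and inner ear, had 4.08% over 44 positions at the end with fewer positions and 10.5% over 57 at the other. For Otx2, which is active in the epiblast and needed for the head, the values come from inner transcript starts, given further on. The dorsal forebrain genes Emx1 and Emx2 had 7.34% over 119 positions (columns 6.44, 7.39 and 8.82%) and 2.84% over 88 (1.46, 2.75 and 4.48%), without overlap of the columns. With windows of 2000 bp Emx2 had 9.84% and Msx1 7.27%, and with windows of 500 bp Msx2 had 0.674%. The window of Emx2 also holds an end of its opposite-strand RNA gene. The midbrain and hindbrain genes En1 and En2 differed more in level. En2 had 24.8% over 6 positions at the end with fewer positions and 1.15% over 85 at the other (columns 0.922, 1.10 and 1.74%). En1 had 12.1% at its 5′ end (columns 7.92, 12.4 and 14.5%), made of 18.0% at 40 positions outside the gene and 2.18% at 38 positions inside it, and 19.0% where at least 20 reads were asked for in each column.

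The Nkx family had the widest spread of levels, from 1.15 to 54.5% over 14 genes, with 12 under 20%. Nkx6-1, of pancreatic beta cells and motor neurons, had 16.1% at its 3′ end and 1.15% over 107 positions at its 5′ end (columns 0.669, 1.11 and 1.53%). Its relative Nkx6-2, of oligodendrocytes, had the largest gap between the ends of a member, with 61.6% over 10 positions at the 3′ end (columns 55.5, 62.3 and 67.5%) and 1.97% over 119 at the 5′ end (1.38, 1.96 and 2.65%). The 5′ end of Nkx6-2 had 7.09% with windows of 2000 bp. The third gene of the group, Nkx6-3, which acts in the stomach, was the most methylated member, with 54.5% over 15 positions (columns 44.8, 54.5 and 63.4%), 10 of which were above 50%, and 57.2% inside the gene. The members of the Nkx6 group thus lay at opposite ends of the range. Nkx6-3 has no listed strand, and its used end can be the 3′ end. Nkx2-2, of the floor of the neural tube and the pancreas, had 43.4% over 7 positions at its 3′ end (columns 30.9, 44.8 and 53.2%) and 4.23% over 84 at its 5′ end (2.96, 4.29 and 5.55%). Nkx2-4 was low at both ends, with 2.99% at the 3′ end and 2.84% over 206 positions at the 5′ end. Nkx2-1, of thyroid, lung and ventral forebrain, had 10.1% (columns from 7.79 to 13.0%), and its neighbour Nkx2-9 14.6% at its 3′ end and 18.9% at its 5′ end (columns 13.0, 18.8 and 22.7%). Nkx2-5, which is needed in the heart, had 13.4% at its 3′ end (columns 10.1, 13.1 and 20.7%) and 14.2% at its 5′ end (12.4, 14.5 and 15.8%), and the columns overlap.

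Among the remaining Nkx genes, Nkx1-2, which is known from the caudal epiblast and tail bud, had 7.97% over 8 positions at its 3′ end (columns 5.86, 8.09 and 9.63%) and 29.2% over only 5 positions at its 5′ end (23.0, 28.5 and 38.8%). It was the sole measured 5′ end of a member above 20%, and the order of its ends was opposite to that of most members. Nkx1-1 had 7.89% at its 3′ end and 5.96% at its 5′ end, Nkx2-3, of gut and spleen, 5.61 and 5.94%, and Nkx3-2, of cartilage, 9.81 and 3.30%, all under 20% in each column. Nkx2-6, of the pharynx, whose strand is not listed, had 16.8% over 27 positions at the end with fewer positions (columns 12.8, 17.9 and 19.5%) and 9.23% over 35 at the other (5.25, 9.53 and 12.9%).

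The 3′ ends of the members were also low. Over the 19 measured 3′ ends the median was 14.6%, with column medians from 11.9 to 16.6%, against 60.1% over 4079 other coding genes, and 12 of 19 members, or 63.2%, lay under 20%, against 17.9% of the others. In the 18 members measured at both known ends, the 3′ end was higher in 13 and lower in 5. Among 3138 other genes it was higher in 2597 and lower in 431. The median difference in the members, 3′ end minus 5′ end, was 4.94 percentage points, against 48.9 points in the other genes. Over the columns this difference ranged from 2.77 to 7.19 points and was positive in 10 of 10 columns. It rested on few genes. With at least 10 positions at each end it was 2.93 points over 13 members, and among the 9 members longer than 5000 bp, a choice made after the values were seen, it was 14.3 points. The 3′ ends that exceeded 25% were those of Nkx6-2, Nkx2-2, Six3, Msx2 and Lhx6. Members are short genes, with a median length of 5678 bp against 17563 bp. Among genes of at most 10000 bp the 3′ ends had a median of 8.89% in 14 members and 52.8% in 1631 others. The median difference in these short genes was 1.92 points in 13 members, with the 3′ end higher in 8 and lower in 5. In 1268 others it was 20 points, with the 3′ end higher in 912 and lower in 246.

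The inside of the members, more than 1000 bp from either end, was low as well. Over 43 measured members the median was 14.4%, and 31, or 72.1%, were under 20%. Over 13867 other coding genes the median was 58.2%, and 8.93% were under 20%. In genes of at most 10000 bp the medians were 14.4% over 31 members and 52.1% over 2338 others. Apart from Nkx6-3, the inside of the members ranged from 2.09% in Irx2 to 28.6% in Emx1. Irx2 had columns from 1.42 to 2.58% over 231 positions, Nkx2-3 had 2.25% over 80 and Irx3 2.96% over 51. The longest member, Lhx4 with 53696 bp, had 13.1% over 389 positions, with columns from 12.3 to 14.9%. Of 24 members measured at both ends and inside, 11 were under 20% in all 3 parts, or 45.8%, among them Lhx2, Lhx5, Dlx2, Dlx6, Irx3, Irx5, Otx1, Six6, Nkx2-3 and Nkx6-1. Of 3076 other coding genes measured in all 3 parts, 98 were, or 3.19%. These 2 shares are not matched for gene length. In genes of at most 10000 bp, 74.2% of the members and 23.7% of the others were under 20% inside.

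**Figure D2:**
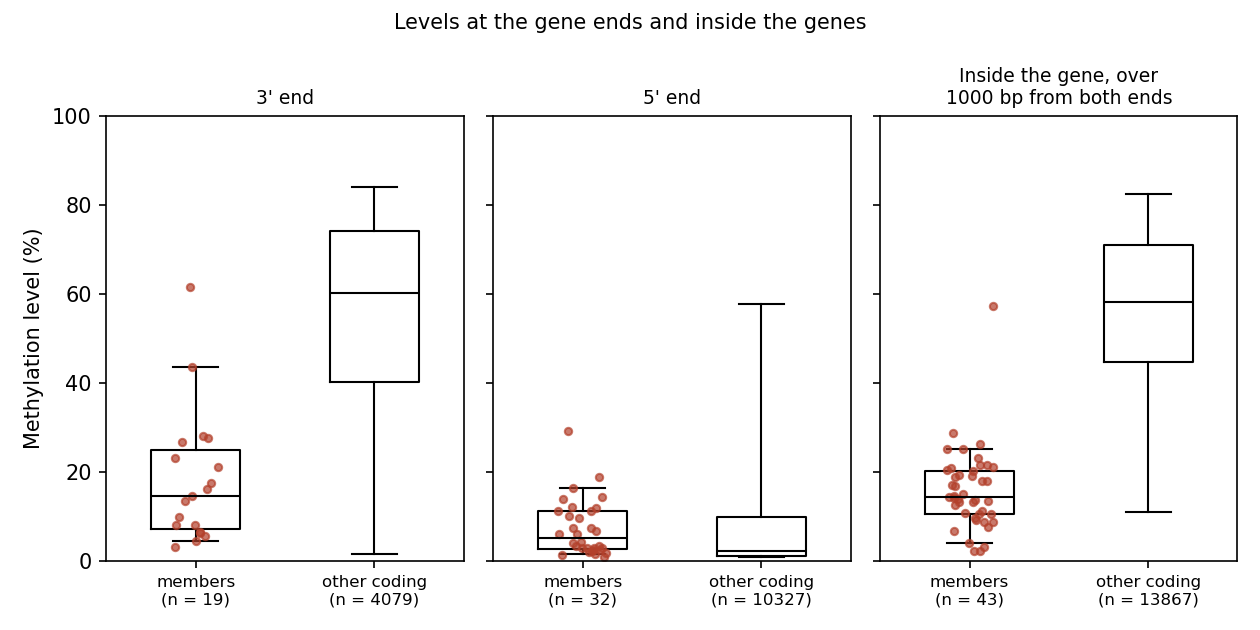
Methylation level (%) at the 3′ end, at the 5′ end and inside the gene, with members left and other coding genes right in each panel. Boxes show quartiles and median, whiskers the 5th and 95th percentile, and points single members, which have a median of 14.6% at the 3′ end and 14.4% inside, against 60.1 and 58.2% in the other genes.

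The low level extended upstream beyond the 5′ end of the genes. From 5000 to 3000 bp upstream of the 5′ end, the median gene level was 19.1% over 13 members and 54.4% over 3196 other genes, and from 3000 to 1000 bp upstream 19.3% over 21 members and 51.3% over 3322. In the outer of these zones 69.2% of the members and 16.0% of the other genes were under 20%, and in the inner 52.4 and 20.7%. In the 500 bp just outside the 5′ end the members had the higher median, with 2.74% over 19 members and 1.50% over 5586 others, and in the 500 bp just inside it was 3.60% over 27 and 1.21% over 7952. From 1000 to 3000 bp inside, the median was 9.96% over 29 members and 33.7% over 5067 others, and from 3000 to 5000 bp 15.7% over 19 members and 56.8% over 3647. Summed over all calls, the columns of the members ranged from 11.1 to 14.3% in this last zone and those of the other genes from 37.9 to 41.5%. The median levels of the members were thus above those of the other genes within 500 bp of the outer 5′ end. From 1000 to 5000 bp on either side they were below them.

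**Figure D3:**
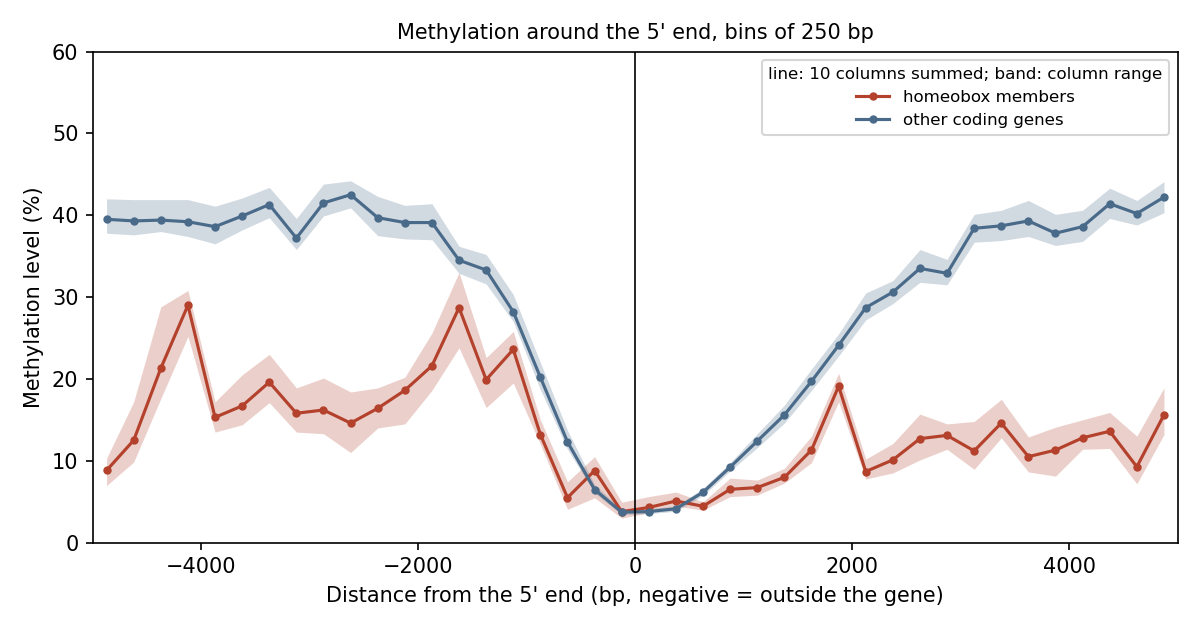
Methylation level (%) in bins of 250 bp against distance from the 5′ end, for the members with a known strand and for the other coding genes, with lines for the 10 columns summed and bands from the lowest to the highest column. Both lines meet near the 5′ end, and from 3000 to 5000 bp inside the gene the members stay between 9.26 and 15.6% in each bin.

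Single positions show the form of this low methylation. The used windows of the members held 2958 positions with a median of 2.98%, against 0.965% over 501281 positions of the other genes. Levels from 5 to 20% made up 30.8% of member positions and 12.8% of the others, whereas levels of 50% or more made up 0.406% and 3.71%. The 12 member positions of the last kind included 10 in Nkx6-3 and 1 in Nkx2-9 at 50.2%. Across the 46 members level and number of measured positions in the window had a Spearman rho of -0.550, and across the other coding genes of -0.449. All points share the same libraries, so this is a description only.

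For 11 members the promoter table lists 13 transcript starts more than 1000 bp inside the outer gene end, and windows of 1000 bp on each side of these starts gave other values. This choice was made after the data were seen. Lhx4 was unmeasured at its outer ends, but had 2.89% over 153 positions around its start 9699 bp inside (columns 2.11, 2.95 and 3.47%). Otx2 had 10.1% over 20 positions around the start 2535 bp inside (columns 6.34, 10.7 and 13.2%) and 23.5% over 28 around the start 4910 bp inside (19.2, 23.6 and 28.8%), and its other listed starts were unmeasured. Lower levels than at the outer end were found around the inner starts of Dlx1, with 2.37% at the inner start and 16.4% at the outer end, of Six3, with 3.79 and 13.8%, and of Irx2, with 1.22 and 9.46%. In these 3 genes the columns of the inner start did not overlap those of the outer end. Higher levels were found at inner starts of Nkx2-5, with 26.0 and 14.2%, of Nkx2-2, with 16.1 and 4.23%, and of Lhx9, with 24.9 and 11.1%. The columns did not overlap in Nkx2-5 and Nkx2-2, and did in Lhx9. Lhx2 had 4.34% at its inner start and 7.37% at its outer end, Lhx6 3.90 and 5.25% at 2 inner starts and 1.69% at its outer end, and Lhx3 15.1% at its inner start. For a median over members, the listed start with the most measured positions was taken for each gene, whether at the gene end or inside. Over the 35 members with such a start the median was 3.90%, and 31 were under 20%. For Otx2 this was the start with 23.5%. No such median is given for the other coding genes.

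**Figure D4:**
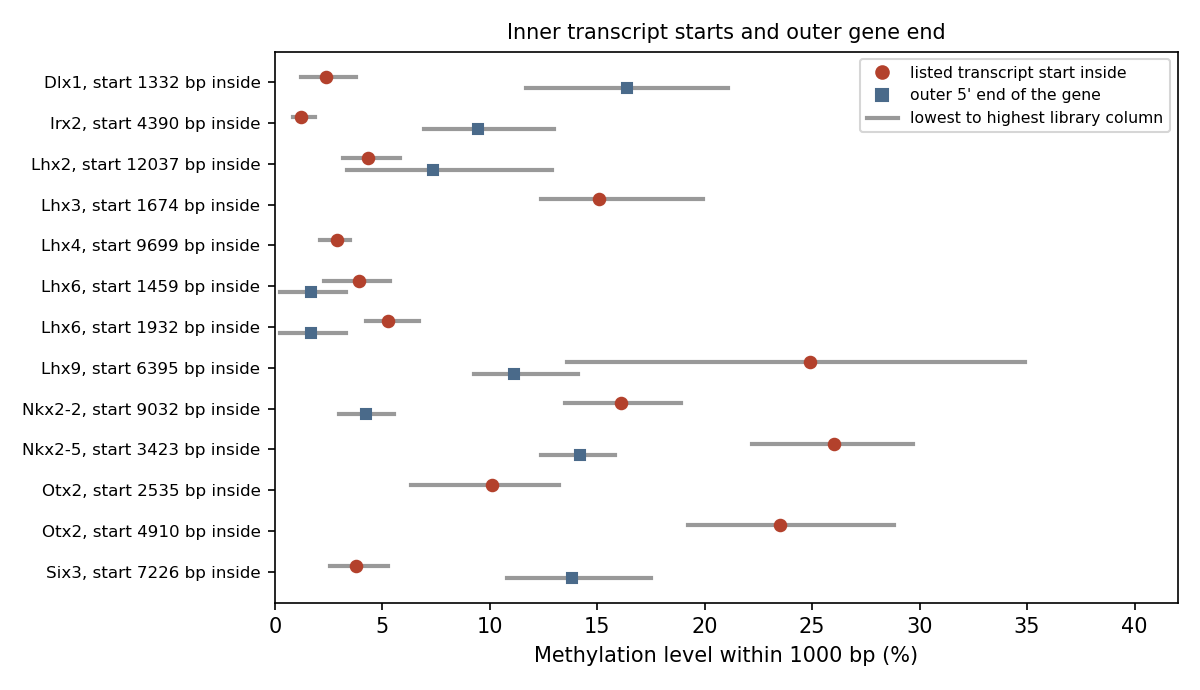
Methylation level (%) within 1000 bp of inner transcript starts (circles) and of the outer 5′ end (squares) of 11 members, with bars from the lowest to the highest library column. Lhx3, Lhx4 and Otx2 have no square, since their outer 5′ end was not measured.

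The spread between library columns differed between genes. The difference between the highest and the lowest column had a median of 3.27 percentage points over the 46 members, with a range from 0.823 points for En2 to 18.6 points for Nkx6-3, against a median of 3.05 points over the other coding genes. At ends from 5 to 20% the medians were 5.77 points for 22 members and 6.58 points for 2359 others, and the chi-square of the calls per degree of freedom, which exceeds 1 where columns differ by more than independent calls would, had medians of 5.82 and 5.88. Linked calls raise this value. The widest ranges were those of Nkx6-3, Irx4, Nkx1-2, Dlx5, Irx1 and Six6, of which Irx4 and Nkx1-2 rest on 7 and 5 positions. Column 3, which has the lowest summed coverage, was highest for 11 of the 46 members, and column 9 was lowest for 10. The median over the members was 7.89% in column 3 and 5.21% in columns 5 and 9. In each of the 10 columns the median of the members exceeded that of the other genes, and 41 to 43 of the 46 members were under 20%. Shares per column are not given for the other genes, of which 80.9% were under 20% over the summed columns. If each column is a sample of this study, the ranges over columns span both arsenic and control.

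**Figure D5:**
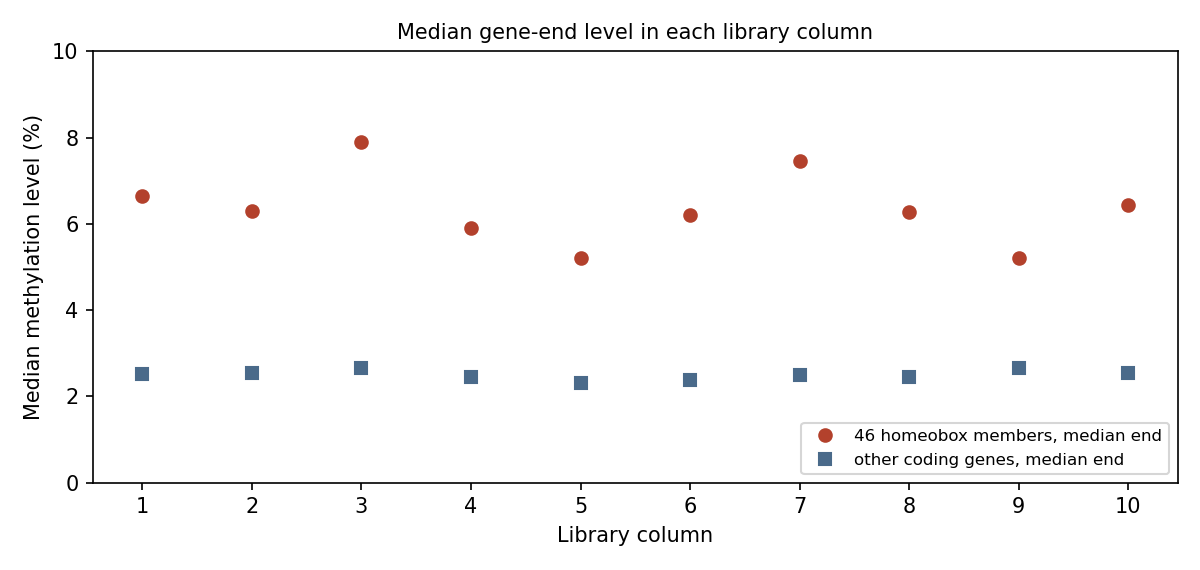
Median methylation level (%) at the used gene end in each of the 10 library columns, for 46 members (circles) and for the other coding genes (squares). Members range from 5.21 to 7.89% and the other genes from 2.31 to 2.66%, without overlap. Each column holds the same genes. At known 5′ ends of genes of at most 10000 bp the medians over summed columns were 3.60% in members and 3.37% in the others.

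Other homeobox genes gave values of the same order. In a list of 93 further homeobox genes, of which 90 were matched, 71 of 76 measured used ends were under 20%, or 93.4%, with a median of 4.61%. Their 26 measured 3′ ends had a median of 20.5%, and 13 of these were under 20%. Of 39 Hox genes 36 were measured, with 31 under 20% and a median of 8.60%, and their 14 measured 3′ ends had a median of 19.1%. The members, with medians of 6.97% at the used end and 14.6% at the 3′ end, lay between these lists at the used end and below both at the 3′ end. The differences between the lists were not tested.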

How the data were processed

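DNA of embryos at embryonic day 7.5 was made into bisulfite libraries, and reads were handled with methylKit, Bismark and Trim Galore on build mm10, per the submitters' processing notes, with versions not given in the sources used here. Raw read counts were deposited for each cytosine, namely coverage, methylated and unmethylated calls in 10 library columns, per the file headers. Every position had at least 10 reads in each column. Of 2137826 rows, 2 repeated a position and were left out. None of the 10 columns is tied to a sample by name, so the planned comparison of arsenic with control was not run and no replicate error within a group is given. That the columns are the samples of this series rests on their number.

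Levels are summed methylated calls over summed coverage, for windows that reach 1000 bp outward and inward from a gene end and hold at least 3 positions. Genes and promoter sequences came from RefSeq GRCm38.p6, and 99.6% of the 141811 measured positions in promoter windows fell on a CpG of these sequences. Overlapping genes can share a window, and 16 of the 49 windows hold an end of another gene. Intervals are Wilson intervals at 95% and cover counting error only, and no source used here names molecular identifiers that would mark PCR copies. The level calculation was tested on simulated data. The members and lists were chosen with earlier results of these data known. Genes were named in full as the 6 highest, the 6 lowest, the 6 with the widest range, the 6 with the largest difference between ends and a list of well-known members, and the others are given more briefly by family. The values of 2 members enter all counts and medians but are not reported singly here, nor examined for single columns that stand apart. Levels were computed with pandas 2.3.3 and numpy 2.4.6 under Python 3.11.15, rank correlations with scipy 1.17.1, and plots with matplotlib 3.10.9. Alternatives covered coverage, very highly covered positions, window, number of positions, weighting, choice of end and leaving out each column.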

Additional observations from a re-analysis of the deposited data

Results flagged for a closer look

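Of 72 member ends examined, 4, or 5.56%, had a library column that stood apart from the other 9 by Dixon's test, and chance gives about 1 in 20. Column 9 had 2.02% at the 5′ end of Six5, against 0.561 to 0.857% in the other columns, on 2521 calls. The level of Six5 was 0.702% without column 9. Column 9 also had 7.00% at the end of Otx1 with fewer positions, against 2.93 to 4.57%. Column 3 had 3.51% at the used end of Dlx6, against 0.492 to 1.46%, on 969 calls, and 14.2% at that of Dlx4, against 8.88 to 11.1%, on 1178 calls. Each of these columns was the highest, and none of the gene ends crossed 20% in it. Which group these columns belong to is not known, and whether depth plays a part was not tested.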

How the results depend on the processing

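The number of members under 20%, 42, ranged from 31 to 44 under the alternatives run, with 31 of 35 and 31 of 32 in the sets with fewer genes. The median level of the used end, 6.97%, was 3.78% with windows of 500 bp, in which all 42 measured members were under 20%, and 8.35% with windows of 2000 bp. It was 3.90% around the transcript starts of the promoter table and 5.08% in members whose 5′ end is known, both choices made after seeing the data. The median difference, 3′ end minus 5′ end, was 2.93 points with at least 10 positions per end and 14.3 points in members longer than 5000 bp, a set also chosen after seeing the data. The cause of these shifts was not tested, other than that the windows and members differ. Leaving out each column in turn gave 42 to 43 members under 20%, medians from 6.75 to 7.09% and differences from 4.61 to 5.27 points. With windows of 2000 bp, 13 of 26 levels of single named genes moved by at least 1 standard deviation of the 10 column levels. It was 10 of 22 with 500 bp, 7 of 25 with at least 20 reads and 1 of 26 with means of position levels. None of 260 moved when a column was left out, but removing a column from the sum can hardly shift a level that far. This last count therefore does not show stability. By over 1.5 times, windows of 2000 bp moved Irx4 to 31.8%, Irx1 to 16.6%, Emx2 to 9.84%, Dlx6 to 9.28%, Msx1 to 7.27%, Nkx6-2 to 7.09%, Lhx1 to 5.26% and Lhx6 to 2.71%. Windows of 500 bp moved Dlx5 to 2.49%, Lhx1 to 1.80%, Nkx6-2 to 1.12%, Irx1 to 0.792%, Irx3 to 0.791% and Msx2 to 0.674%, where in Irx1 and Dlx5 the opposite end was used. At least 20 reads moved En1 to 19.0% and Nkx2-2 to 2.80%. Among the genes given more briefly, windows of 500 bp gave 15.2% for Nkx2-6 and 2.28% for Otx1, both at the opposite end, 6.50% for Lhx9, 5.99% for Six4, 4.21% for Dlx3, 3.60% for Lhx2, 1.87% for Nkx2-3, 1.84% for Nkx2-4, 1.69% for Dlx2 and 1.48% for Irx5. Windows of 2000 bp gave 9.31% for Dlx1, 7.08% for Nkx3-2, 5.83% for Dlx2, 5.20% for Irx5 and 3.96% for Six2, and at least 20 reads gave 12.8% for Lhx2, 3.86% for Otx1 at the opposite end and 1.38% for Six4. No member shared its window with another member. No paired analysis was possible because the columns carry no replicate number of the titles and no group. Single columns are limited by depth at ends with few positions, such as those of Irx4 and Nkx1-2.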
